A study of Mus musculus with 6 samples.

Results

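The genes described are the Toll-like and NOD-like sensors of microbial and damage signals, with their co-receptors, adaptor proteins and kinases. They were chosen by a rule on gene symbols, with earlier results of these data known. The rule took the Tlr, Nlrp, Nlrx, Naip, Irak and numbered Card families, Nlrc3, Nlrc4, Nod1 and Nod2. It also took 20 genes given by name, such as Myd88, Pycard and Mavs. The rule found 63 of the 17794 genes in the deposited table, and 49 of them had enough reads to be tested, against 13838 of all genes. Toll-like receptors sit in the plasma membrane or in endosomes and bind bacterial lipids, proteins and nucleic acids; through the adaptors Myd88 and Ticam1 they pass the signal to IRAK and TAK1 kinases and on to NF-κB and interferon regulatory factors. NOD-like receptors and Aim2 sense peptidoglycan fragments, bacterial proteins, DNA and cell damage in the cytosol, and several of them assemble with the adaptor Pycard into inflammasomes that activate caspase-1 and interleukin-1β. In the cornea these sensors are found in the epithelium, in stromal cells and in resident and recruited leukocytes, and they are known for their part in the response to surface injury and infection.

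RNA was sequenced from whole mouse corneas in which experimental dry eye had been induced with benzalkonium chloride (BAC), a quaternary ammonium preservative of eye drops. Treated corneas received luteolin, a plant flavone, for 10 days, and the controls received vehicle for 10 days, with 3 libraries in each group. Both groups carried the BAC injury, and corneas without it were not analysed here. The labels give the cell type only as multiple and do not state strain, age, luteolin dose or route, or whether each library is from its own animal. The p-values below therefore rest on the spread between these samples alone, which may be technical.

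The libraries held 16084855 to 16469699 estimated counts each. Levels are given as CPM, counts scaled to a common library size with TMM factors; across genes (not independent replicates) Pearson's r of log2 CPM within groups was 0.971 to 0.991. Of the 13838 tested genes, 3949 were higher and 4208 lower with luteolin by edgeR's quasi-likelihood test at a Benjamini-Hochberg adjusted p under 0.05, which is 58.9% of them. With library sizes in place of TMM factors 2943 were higher and 5153 lower, and with upper quartile factors 3083 and 5004, and the median over all genes, -0.02 on the log2 scale with TMM factors, was -0.13 and -0.11 with these scalings. The corneal epithelium markers Krt12, Pax6, Krt5, Klf5, Cdh1 and Aldh3a1 were present in all libraries, with a summed level of 68890 to 70850 CPM with luteolin and 39670 to 46730 CPM with vehicle, and all 6 were higher with luteolin.

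Most sensors and co-receptors with low levels in the cornea were lower after luteolin, the more abundant adaptors and kinases mostly had small changes or did not pass, and a small set led by Card14, Nlrp1b, Naip1, Tlr5 and Irak2 was higher. Of the 49 tested genes, 32 passed the test, 21 lower and 11 higher, and 17 did not pass. This is 65.3% called, beside 58.9% of all tested genes. The lower ones made up 42.9%, beside 30.4% of all genes, and the higher ones 22.4%, beside 28.5%. A total of 14 were lower by over 1 on the log2 scale, where 15.1% of all tested genes were, and 4 were higher by over 1, where 4.61% of all tested genes were. The luteolin and vehicle libraries did not overlap for 37 of the 49, beside 67.4% of all tested genes. The median log2 fold change of the 49 was -0.15, beside -0.02 for all tested genes. These counts cover only the genes that passed the filter on low counts, and a gene with few reads in luteolin libraries could pass it only through its vehicle level.

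**Figure D1:**
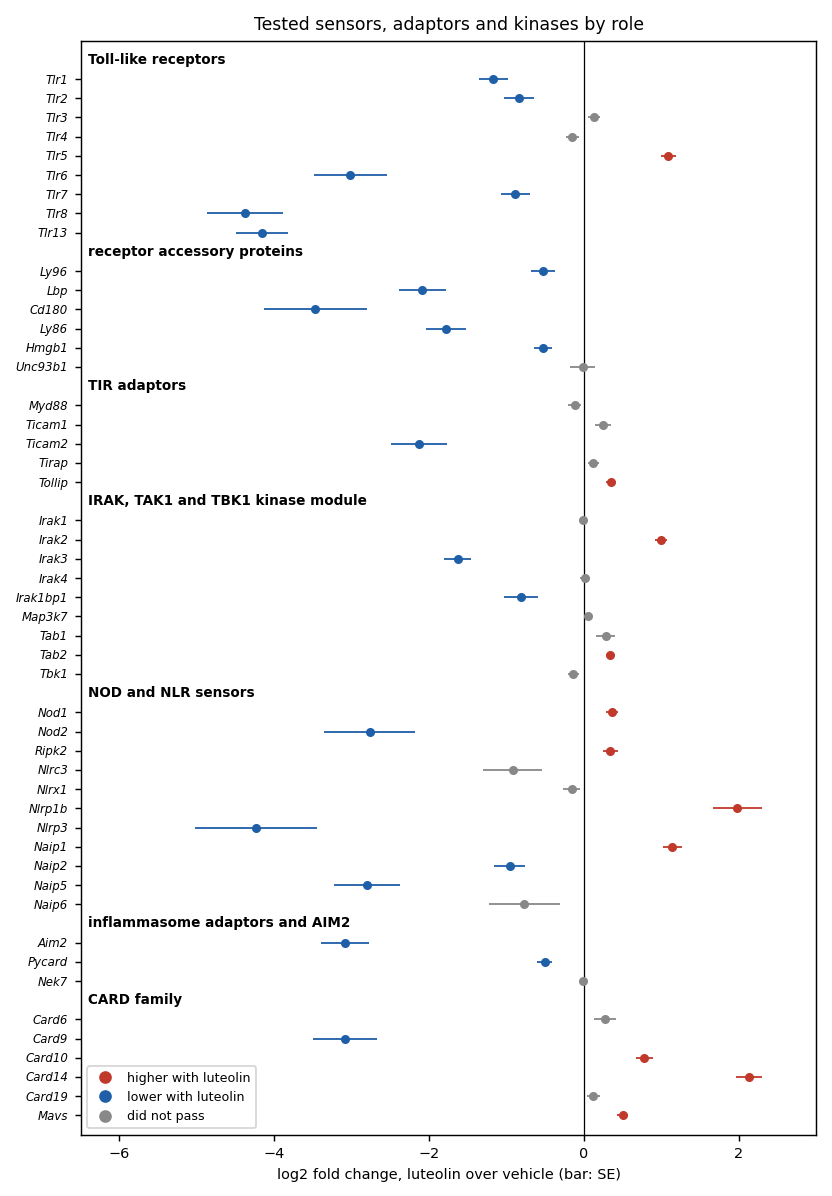
Log2 fold change (luteolin over vehicle) of the 49 tested genes, grouped by role, with bars for the SE; red, higher; blue, lower; grey, did not pass. The points of the Toll-like receptors run from -4.38 (Tlr8) to 1.09 (Tlr5), while Myd88, Tirap, Irak1, Irak4, Map3k7 and Nek7 lie within 0.12 of zero.

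Direction differed with the mean level, which a decrease itself pulls down. Of the 8 tested genes with a mean under 2 CPM over the 6 libraries, 7 were lower and Naip6 did not pass, beside 37.2% lower among all 1400 tested genes at that level. Among these 7, Tlr6, Tlr8, Cd180, Ticam2, Naip5 and Card9 passed the filter on low counts only through their vehicle level. Naip6 passed it in the same way and was not called. A gene let in this way need not be called lower, but it could hardly be called higher. The count in this bin therefore says little about direction. Of the 13 tested genes at 2 to 10 CPM, 11 were lower, Nlrp1b was higher and Nlrc3 did not pass (median log2 fold change -1.17). Among all 2665 tested genes at that level 40.9% were lower and the median was -0.36. Of the 11, Tlr13, Nlrp3 and Aim2 also passed the filter on low counts only through their vehicle level. Part of this count was therefore set by the filter. Of the 17 at 10 to 50 CPM, Tlr2 was lower, 5 were higher and 11 did not pass (median 0.13); among all 5404 genes at that level 30.6% were lower and 27.1% higher, with a median of -0.02. Of the 11 at 50 CPM or more, Hmgb1 and Pycard were lower, 5 were higher and 4 did not pass (18.2% lower and 45.5% higher, median 0.12), which is near the 21.7% lower and 44.3% higher, with a median of 0.13, of all 4369 genes at that level.

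**Figure D2:**
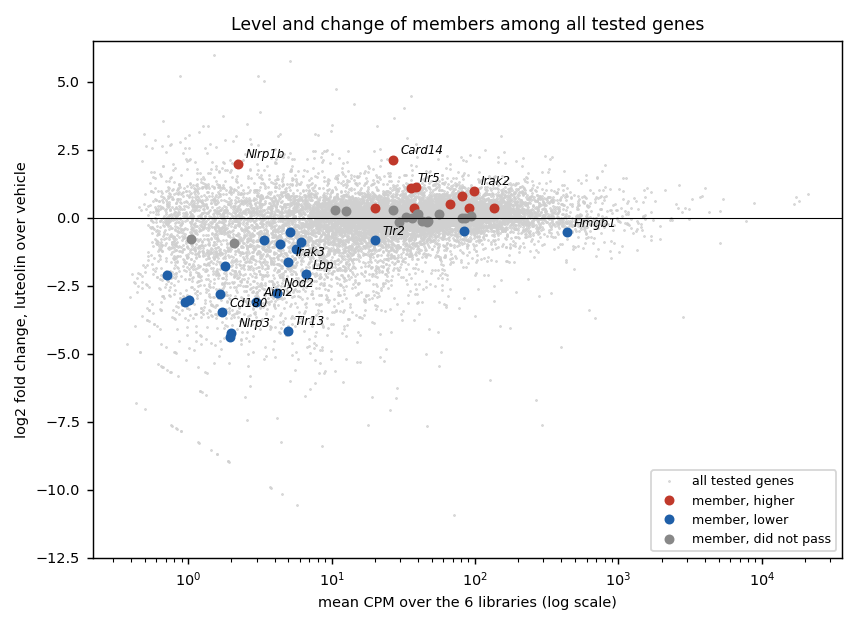
Log2 fold change (luteolin over vehicle) against the mean CPM over the 6 libraries (log scale); pale grey dots are all 13838 tested genes, coloured points the 49 described here. The lower genes lie mostly under 10 CPM and the higher ones mostly above 10 CPM.

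Markers of other cells in the tissue moved in the same libraries. Of 10 tested macrophage markers 9 were lower and 1 did not pass. The median was -2.96 on the log2 scale, and their summed level was 86.0 to 96.4 CPM with luteolin, against 265 to 412 CPM with vehicle. Both tested neutrophil markers, Csf3r (-5.35) and Cxcr2 (-5.01), were lower. They passed the filter on low counts only through their vehicle level, so they could hardly be called higher. The list summed to 0.129 to 0.774 CPM with luteolin and 19.7 to 25.1 CPM with vehicle. Ly6g, Camp, Ngp and Retnlg, too low to test, had no counts with luteolin and 3, 8, 1 and 20 counts over the vehicle group. Of 6 pan-leukocyte genes 5 were lower, Ptprc by 2.96 on the log2 scale and Spi1 by 2.73 among them, and Ptpn6 was higher (0.40). The 3 tested dendritic cell markers were lower (median -1.56), as were the tested T cell genes Cd4 (-3.17) and Lck (-1.88), with list sums of 2.13 to 3.09 against 6.44 to 10.3 CPM and of 1.35 to 2.28 against 4.59 to 10.0 CPM. Cd4, Lck, the dendritic marker Cd209a, the macrophage marker Fcgr1 and the mast cell gene Cma1 also passed the filter only through their vehicle level. B cell genes were near zero in both groups, at a sum of 1.03 to 1.11 CPM with luteolin and 1.40 to 2.40 CPM with vehicle; Cd22 had no counts with luteolin, Cd79a and Pax5 had none with vehicle, and Cd79b (0.01) did not pass. All 6 vessel endothelium genes were lower (median -2.86), at 16.1 to 24.8 CPM in sum with luteolin and 123 to 201 CPM with vehicle. Of 5 mast cell genes 4 were lower and Kit was higher (1.41), and the list summed to 316 to 330 CPM with luteolin and 122 to 152 CPM with vehicle, of which Kit alone averaged 319 and 120 CPM. The 3 tested conjunctiva keratins were lower (median -0.78), and of 6 keratocyte genes Ogn (-1.23) and Col1a2 (-1.04) were lower and 4 did not pass. In whole tissue, fewer cells of a type and less RNA per cell cannot be told apart, and the part of these markers in the changes of the sensors was not tested.

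**Figure D3:**
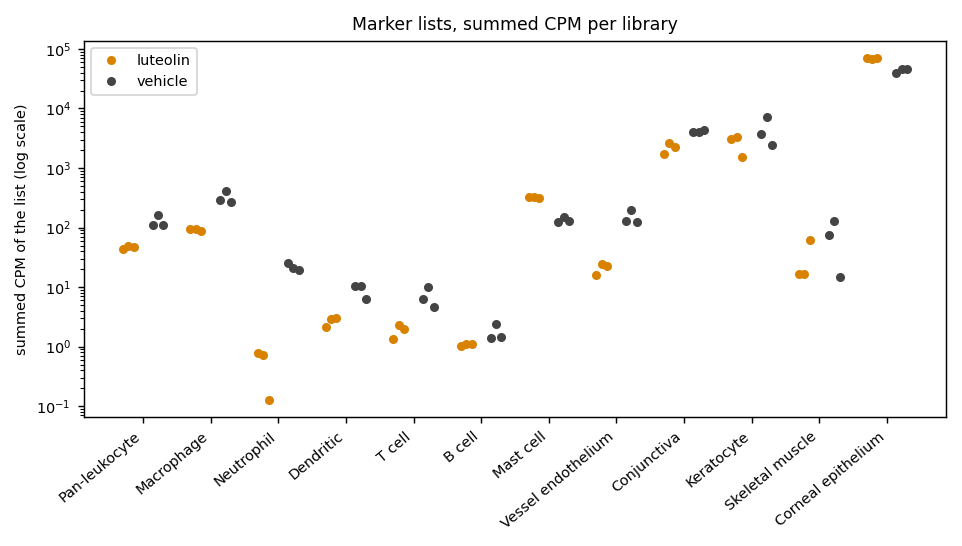
Summed CPM of 12 marker lists (log scale) in the 3 luteolin libraries (left, orange) and the 3 vehicle libraries (right, grey). Macrophage, neutrophil and vessel lists are lower in every luteolin library than in any vehicle library, and the corneal epithelium list is higher. The mast cell sum is higher through Kit alone, as the other 4 genes of that list were lower. The skeletal muscle and keratocyte lists overlap between groups.

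The skeletal muscle and keratocyte sums varied between libraries and overlapped between the groups. The skeletal muscle list summed to 16.8, 16.6 and 61.2 CPM in luteolin 1, 2 and 3 and to 76.4, 129 and 14.8 CPM in vehicle 1, 2 and 3, and 0 of its 6 genes passed. Vehicle 2 also had the highest sum of the keratocyte list (7129 CPM) and of the macrophage list (412 CPM), and it was the highest library for 14 of the 21 lower genes, while vehicle 3 was the highest for 4 and vehicle 1 for 3.

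Stretches of sequence before the transcription start are shown for the 3 largest decreases and the 3 largest increases among the called genes with an entry (51 of the 63 genes have one). Each is the 250 bases before the first start listed in RefSeq for GRCm38.p6, a later build than the mm9 of the expression table, printed 5′ to 3′, and capitals mark matches to the purine-rich core GAGGAAG bound by Spi1, the myeloid transcription factor whose own transcript was lower, or to the GC box GGGCGG, on either strand. The Tlr8 and Naip1 windows hold neither, and the κB and interferon-stimulated response element consensus sequences were not found in the 6.
Tlr8, chrX:167264330-167264579, minus strand: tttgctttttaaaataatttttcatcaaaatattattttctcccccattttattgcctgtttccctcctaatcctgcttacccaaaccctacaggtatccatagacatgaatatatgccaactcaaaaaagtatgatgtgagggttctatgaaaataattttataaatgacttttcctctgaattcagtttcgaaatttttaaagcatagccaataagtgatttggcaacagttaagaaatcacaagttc
Nlrp3, chr11:59542436-59542685, plus strand: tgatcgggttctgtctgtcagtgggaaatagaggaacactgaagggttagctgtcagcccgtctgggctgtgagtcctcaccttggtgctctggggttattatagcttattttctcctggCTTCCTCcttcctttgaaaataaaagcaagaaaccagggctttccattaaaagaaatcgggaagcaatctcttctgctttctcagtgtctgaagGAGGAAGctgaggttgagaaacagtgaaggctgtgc
Tlr13, chrX:106143025-106143274, plus strand: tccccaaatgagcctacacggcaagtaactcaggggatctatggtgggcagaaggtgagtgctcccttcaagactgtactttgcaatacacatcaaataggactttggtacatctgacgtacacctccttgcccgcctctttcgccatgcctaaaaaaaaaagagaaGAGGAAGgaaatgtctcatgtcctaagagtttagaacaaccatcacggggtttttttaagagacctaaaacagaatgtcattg
Nlrp1b, chr11:71230734-71230983, minus strand: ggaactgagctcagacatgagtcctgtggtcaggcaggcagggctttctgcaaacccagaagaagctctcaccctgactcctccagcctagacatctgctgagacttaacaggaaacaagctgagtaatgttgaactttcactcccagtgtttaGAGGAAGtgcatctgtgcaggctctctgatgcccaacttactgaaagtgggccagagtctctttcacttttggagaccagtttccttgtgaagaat
Naip1, chr13:100452865-100453114, minus strand: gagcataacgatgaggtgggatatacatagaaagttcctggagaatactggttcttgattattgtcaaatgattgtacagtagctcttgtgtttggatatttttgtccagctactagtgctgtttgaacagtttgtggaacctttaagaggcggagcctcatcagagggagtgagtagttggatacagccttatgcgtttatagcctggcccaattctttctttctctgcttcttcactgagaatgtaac
Tlr5, chr1:182954538-182954787, plus strand: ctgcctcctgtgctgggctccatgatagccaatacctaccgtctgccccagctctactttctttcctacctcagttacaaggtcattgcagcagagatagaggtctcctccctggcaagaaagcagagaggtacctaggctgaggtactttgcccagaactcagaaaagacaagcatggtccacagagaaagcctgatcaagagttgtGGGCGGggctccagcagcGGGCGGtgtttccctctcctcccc
Of the 17 lower genes with an entry, 5 held GAGGAAG in this window (Tlr1, Tlr13, Nlrp3, Aim2 and Pycard), as did 1 of the 9 higher genes (Nlrp1b), 1 of the 13 that did not pass and 10.4% of 27025 windows of all genes. The GC box was in 5 of the 17 lower, 6 of the 9 higher (Tlr5, Tollip, Tab2, Nod1, Card10 and Mavs) and 8 of the 13 that did not pass, beside 32.9% of all windows. The κB consensus was in 2 of the 17 lower (Tlr2 and Naip5), 0 of the 9 higher and 3 of the 13 that did not pass, beside 7.01% of all windows, and the interferon-stimulated response element consensus in 1 (Tlr6), 0 and 1 (Myd88), beside 3.04%. No match overlaps another in the printed sequences, and a match is a string of letters, not evidence of binding. The differences between these shares were not tested, and neither was a part of Spi1 in the changes of these genes.

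Among the Toll-like receptors, 6 of 9 tested were lower (66.7%, beside 30.4% of all tested genes), 1 was higher and 2 did not pass. Of the 6, Tlr6, Tlr8 and Tlr13 passed the filter on low counts only through their vehicle level, so part of this count was set by the filter. The endosomal receptors Tlr8 and Tlr13 had the largest decreases. Tlr13 (gene ID 279572), a receptor that in mice detects bacterial ribosomal RNA, stood at 0.322, 0.780 and 0.450 CPM with luteolin and at 9.17, 11.5 and 7.39 CPM with vehicle. Every vehicle library was above every luteolin library, and the gene was 17.8-fold lower (log2 fold change -4.16, SE 0.331, edgeR adjusted p = 0.000112). Tlr8 (gene ID 170744), an endosomal receptor next to Tlr7 on the X chromosome, was at 0.0645, 0.325 and 0.129 CPM with luteolin and at 2.80, 4.97 and 3.46 CPM with vehicle. It was 20.8-fold lower (log2 fold change -4.38, SE 0.487, edgeR adjusted p = 0.000347). The luteolin group held 8 counts in all; without luteolin 2 it held 3, and the ratio of vehicle to luteolin was then 38.8 with an exact 95% counting interval of 13.1 to 190, which covers counting error only.

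Tlr6 and Tlr1, neighbouring genes whose products each pair with Tlr2 to bind bacterial lipopeptides, were both lower. Tlr6 was at 0.193, 0.390 and 0.0643 CPM with luteolin, against 1.93, 1.58 and 1.91 CPM with vehicle, 8.12-fold lower (edgeR adjusted p = 0.00142, and 13.4-fold without luteolin 2). Tlr1 was at 3.997, 2.92 and 3.41 CPM with luteolin, against 7.59, 8.90 and 6.85 CPM with vehicle, 2.26-fold lower (edgeR adjusted p = 0.00160). The estimated counts of both genes had decimals in 4 libraries, which means that some reads were shared out between genes, and their separate values are uncertain. Tlr2 itself, with whole counts, was at 12.1, 17.4 and 13.6 CPM with luteolin and at 19.6, 29.6 and 27.8 CPM with vehicle, a log2 fold change of -0.84 (SE 0.192). Tlr7, which detects single-stranded RNA, was 1.85-fold lower, with decimals in all 6 libraries.

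The receptors that bind flagellin, double-stranded RNA and lipopolysaccharide did not follow that pattern. Tlr5 (gene ID 53791), the flagellin receptor, stood at 44.2, 52.3 and 49.0 CPM with luteolin, against 20.7, 24.4 and 23.1 CPM with vehicle. The groups did not overlap, and the log2 fold change was 1.09 (SE 0.0939, edgeR adjusted p = 0.000138). Tlr3, the receptor of double-stranded RNA, averaged 41.5 ± 1.90 CPM with luteolin and 38.0 ± 2.81 CPM with vehicle (SD, n = 3 each), and its difference of 0.13 (SE 0.0765) on the log2 scale did not pass. Tlr4, the lipopolysaccharide receptor, averaged 44.1 ± 2.67 CPM with luteolin and 48.8 ± 4.75 CPM with vehicle (SD, n = 3 each); its log2 fold change of -0.15 (SE 0.0881) did not pass, and passed with library sizes only (-0.26), upper quartile factors (-0.24) and the gene length correction (-0.29), with an adjusted p over all alternatives and tools from 0.0281 to 0.405.

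Per gene length, Tlr5 was with luteolin the leading Toll-like receptor transcript. Summed over the 12 listed receptors, the deposited TPM values were 53.2, 59.5 and 56.3 with luteolin and 55.2, 67.4 and 60.2 with vehicle, so the totals overlapped. Within that sum Tlr5 held 35.7%, 37.3% and 37.3% with luteolin, against 16.04%, 15.7% and 16.2% with vehicle. Tlr2 held 14.6 ± 1.89% with luteolin and 24.1 ± 2.89% with vehicle, Tlr3 26.9 ± 0.826% and 22.8 ± 1.78%, and Tlr4 15.03 ± 1.86% and 15.3 ± 1.68% (SD, n = 3 each). In TPM the order with luteolin was Tlr5 (20.7 ± 1.62), Tlr3 (15.1 ± 0.663), Tlr4 (8.43 ± 0.578) and Tlr2 (8.28 ± 1.52). Tlr4 and Tlr2 did not differ there beyond their spread. With vehicle the order was Tlr2 (14.7 ± 2.92), Tlr3 (13.9 ± 1.14), Tlr5 (9.73 ± 0.855) and Tlr4 (9.28 ± 0.766), and neither the upper pair nor the lower pair differed beyond its spread. Tlr8, Tlr13, Tlr6, Tlr9, Tlr11 and Tlr12 averaged at most 0.207 TPM with luteolin. No test was made of these shares; 3 libraries against 3 cannot go below p = 0.10 in an exact permutation test.

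**Figure D4:**
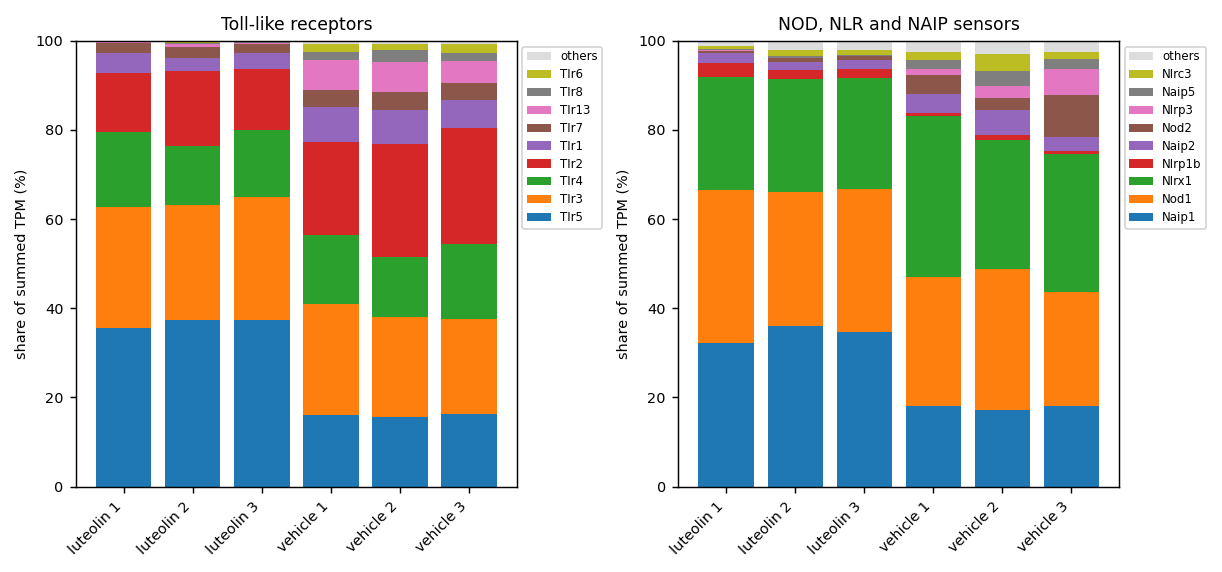
Share of the summed TPM held by each Toll-like receptor (left panel) and by each NOD, NLR or NAIP sensor (right panel) in the 3 luteolin and 3 vehicle libraries. Tlr5 and Naip1 take a larger share in every luteolin library (at least 35.7% and 32.1%) than in any vehicle library (at most 16.2% and 18.1%).

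Of the 6 accessory proteins of the Toll-like receptors, 5 were lower (83.3%, beside 30.4% of all tested genes) and Unc93b1 did not pass. Of the 5, Cd180 passed the filter on low counts only through its vehicle level. The 6 comprise co-receptors and binding proteins, counted with Hmgb1 and Unc93b1, which are not co-receptors. Lbp (gene ID 16803), a secreted protein that carries lipopolysaccharide to its receptor, was at 1.93, 3.12 and 2.51 CPM with luteolin, against 9.34, 14.98 and 7.87 CPM with vehicle (log2 fold change -2.09, SE 0.301). Cd180 and Ly86 encode a membrane receptor and its partner that modulate Tlr4 signalling on B cells and myeloid cells. Cd180 stood at 0.129, 0.585 and 0.129 CPM with luteolin, against 2.22, 5.33 and 1.97 CPM with vehicle. It was 11.0-fold lower (edgeR adjusted p = 0.00354), or 23.4-fold without luteolin 2 and 7.29-fold without vehicle 2. Ly86 was at 0.838, 0.910 and 0.708 CPM with luteolin, against 2.98, 3.16 and 2.32 CPM with vehicle, 3.42-fold lower. The smaller differences were those of Ly96, the lipopolysaccharide-binding partner of Tlr4 (log2 fold change -0.53, SE 0.156), and of Hmgb1, a chromatin protein that acts as a danger signal outside the cell (-0.53, SE 0.118, with decimals in the counts of 3 libraries). The call of Ly96 ended with a correction for gene length (-0.29, edgeR adjusted p = 0.126), with DESeq2 (adjusted p = 0.0533) and without luteolin 1, luteolin 2 or vehicle 1 (adjusted p 0.0558 to 0.0668); over the alternatives its adjusted p ran from 0.000408 to 0.126. Unc93b1, the chaperone that takes nucleic acid receptors to endosomes, averaged 35.9 ± 2.41 CPM with luteolin and 36.4 ± 8.70 CPM with vehicle (SD, n = 3 each) and did not pass.

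Of the adaptors with a Toll/interleukin-1 receptor (TIR) domain, counted with Tollip, 1 was lower, 1 was higher and 3 did not pass. This is 40% called, beside 58.9% of all tested genes. Myd88, the adaptor shared by most of the family, averaged 40.8 ± 3.45 CPM with luteolin and 44.2 ± 2.79 CPM with vehicle (SD, n = 3 each), a log2 fold change of -0.12 (SE 0.0839). Tirap (0.12), its bridging adaptor, and Ticam1 (0.24), the adaptor of Tlr3 and Tlr4, did not pass either. Ticam2, which links Ticam1 to Tlr4, was at 0.258, 0.260 and 0.257 CPM with luteolin (4 counts in each library), against 1.05, 1.46 and 0.953 CPM with vehicle, 4.38-fold lower (edgeR adjusted p = 0.00205). Tollip, an inhibitor of IRAK signalling, was at 107, 96.4 and 99.3 CPM with luteolin, against 77.2, 77.0 and 84.1 CPM with vehicle, 1.27-fold higher.

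In the IRAK, TAK1 and TBK1 kinase module 2 genes were higher, 2 were lower and 5 did not pass. This is 44.4% called, beside 58.9% of all tested genes. Irak2 and Irak3 moved in opposite directions. Irak2 (gene ID 108960), which sustains signalling downstream of Myd88, was at 138, 129 and 124 CPM with luteolin and at 60.4, 71.0 and 66.0 CPM with vehicle. The groups did not overlap, and the log2 fold change was 0.99 (SE 0.0770, edgeR adjusted p = 0.000105). Irak3 (gene ID 73914), a kinase-like inhibitor of the pathway known from macrophages, was at 2.38, 2.40 and 2.51 CPM with luteolin and at 6.72, 8.72 and 7.27 CPM with vehicle, 3.10-fold lower (log2 fold change -1.63, SE 0.175). Per gene length, Irak2 averaged 67.4 ± 4.405 TPM with luteolin and 34.3 ± 2.62 TPM with vehicle, and Irak3 1.35 ± 0.0624 and 4.14 ± 0.509 TPM (SD, n = 3 each). The starting kinases Irak4 (0.01) and Irak1 (-0.02), the TAK1 gene Map3k7 (0.05), its partner Tab1 (0.28) and Tbk1 (-0.14), the kinase of the interferon arm, did not pass, and Tab2 was 1.27-fold higher. Irak1bp1, an Irak1-binding protein gene, was lower (-0.82, SE 0.220), and its call ended without luteolin 3 or vehicle 1 (edgeR adjusted p 0.0531 and 0.0559, over all alternatives and tools 0.00424 to 0.0559).

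**Figure D5:**
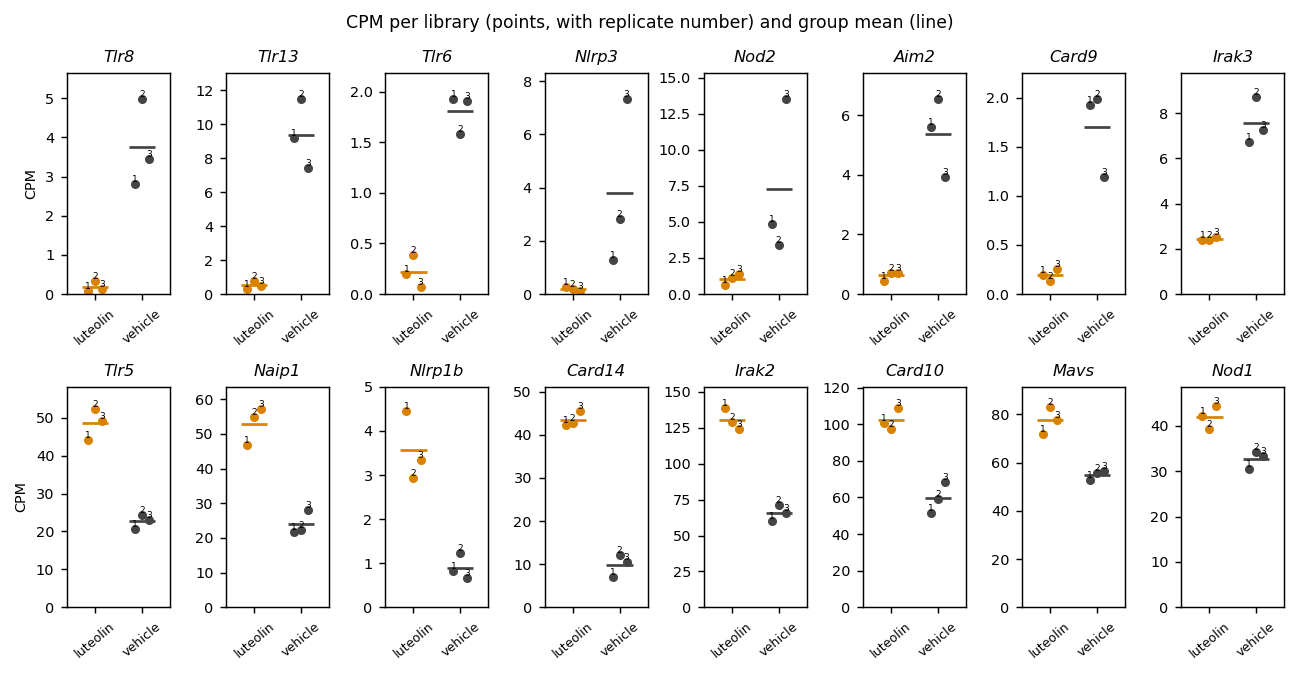
CPM in each library for 16 genes, with luteolin on the left (orange) and vehicle on the right (grey); numbers mark the replicate and lines the group mean, and each axis starts at 0. In all 16 panels the luteolin and vehicle points do not overlap, but the genes were chosen after their values were seen. Among all tested genes the groups did not overlap for 67.4%. Vehicle 3 stands above the other vehicle libraries for Nlrp3 and Nod2.

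Of the 21 NOD, NLR and NAIP sensor genes, counted with the kinase Ripk2, 11 were tested: 4 were lower, 4 were higher and 3 did not pass. The lower and the higher genes were each 36.4%, beside 30.4% and 28.5% of all tested genes. Nlrp3, Naip5 and Naip6 passed the filter on low counts only through their vehicle level. Nod1 and Nod2, receptors of different peptidoglycan fragments, went opposite ways. Nod2 (gene ID 257632) was at 0.645, 1.10 and 1.42 CPM with luteolin and at 4.85, 3.40 and 13.5 CPM with vehicle, 6.83-fold lower (log2 fold change -2.77, SE 0.593, edgeR adjusted p = 0.00574) or 3.94-fold without vehicle 3. Nod1 was 1.28-fold higher, at 42.0 ± 2.51 CPM with luteolin and 32.7 ± 1.999 CPM with vehicle (SD, n = 3 each). Ripk2, the kinase that both receptors recruit, was higher by 0.34 on the log2 scale; its call ended without any 1 luteolin library or vehicle 3 (0.23 to 0.36, edgeR adjusted p 0.0516 to 0.0888) and with upper quartile factors, library sizes only or limma-trend (adjusted p = 0.0838, 0.114 and 0.132, over all alternatives and tools 0.0165 to 0.132).

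The inflammasome sensors Nlrp3 and Aim2 were lower and Nlrp1b was higher. Nlrp3 (gene ID 216799), which responds to membrane damage and ion efflux, was at 0.258, 0.195 and 0.129 CPM with luteolin and at 1.28, 2.81 and 7.33 CPM with vehicle. The vehicle libraries spread widely, and the gene was 18.9-fold lower (log2 fold change -4.24, SE 0.790, edgeR adjusted p = 0.00312) or 10.3-fold without vehicle 3. Aim2 (gene ID 383619), the sensor of cytosolic DNA, was at 0.451, 0.715 and 0.708 CPM with luteolin, against 5.61, 6.56 and 3.93 CPM with vehicle, 8.50-fold lower (log2 fold change -3.09, SE 0.307). Nlrp1b (gene ID 637515), a sensor of bacterial protease activity, ran the other way, at 4.45, 2.92 and 3.35 CPM with luteolin, against 0.818, 1.23 and 0.655 CPM with vehicle (log2 fold change 1.98, SE 0.312, with decimals in the count of 1 library). Its neighbour Nlrp1a had 3 counts in each group.

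The NAIP genes, neighbours in 1 cluster whose products bind bacterial flagellin or secretion-system proteins, did not move together. Naip1 (gene ID 17940), which binds the needle protein of the secretion system, was at 46.9, 54.9 and 57.2 CPM with luteolin, against 21.7, 22.3 and 28.1 CPM with vehicle, 2.21-fold higher (edgeR adjusted p = 0.000310). Naip5, a flagellin sensor, was at 0.322, 0.650 and 0.257 CPM with luteolin, against 2.04, 3.86 and 2.80 CPM with vehicle, 6.98-fold lower (edgeR adjusted p = 0.00123). Naip2, which binds the rod protein, was 1.94-fold lower, and the second flagellin sensor Naip6 (-0.77, SE 0.457) did not pass, though without luteolin 2 it did (-1.46, edgeR adjusted p = 0.0269, over all alternatives and tools 0.0269 to 0.425). All counts of the 4 NAIP genes were whole numbers. Naip1 held 32.1% to 35.9% of the summed TPM of the 20 NOD, NLR and NAIP sensors with luteolin and 17.3% to 18.1% with vehicle. Nod1, Naip1 and Nlrx1 together with the rest summed to 49.1 ± 2.73 TPM with luteolin and 43.1 ± 4.75 TPM with vehicle (SD, n = 3 each). Nlrx1, a mitochondrial member (-0.16, SE 0.106), did not pass; Nlrc3, a member reported to restrain signalling (-0.92, SE 0.382), did not pass, and it passed with library sizes only (-1.04, edgeR adjusted p = 0.0479) and without vehicle 1 (-1.16, edgeR adjusted p = 0.0451), over all alternatives and tools 0.0334 to 0.224.

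Pycard, the adaptor that joins inflammasome sensors to caspase-1, was at 58.9, 71.8 and 74.6 CPM with luteolin, against 99.3, 92.5 and 102 CPM with vehicle. The groups did not overlap, and the gene was 1.43-fold lower (log2 fold change -0.51, SE 0.0954, edgeR adjusted p = 0.00305). Nek7, the kinase that Nlrp3 needs to assemble, averaged 84.4 ± 2.01 CPM with luteolin and 84.8 ± 4.38 CPM with vehicle (SD, n = 3 each), and its log2 fold change of -0.01 (SE 0.0594) did not pass.

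Among the genes with a caspase recruitment domain (CARD), counted with Mavs, 3 of 6 tested were higher (50%, beside 28.5% of all tested genes). Of the rest, 1 was lower and 2 did not pass. Card14 had the largest increase of all 49 tested genes. Card14 (gene ID 170720), a scaffold for NF-κB signalling in keratinocytes, was at 42.3, 42.7 and 45.5 CPM with luteolin, against 7.12, 12.1 and 10.6 CPM with vehicle, 4.39-fold higher (log2 fold change 2.13, SE 0.173, edgeR adjusted p = 0.000116). Its counts had decimals in all 6 libraries, so some of its reads were shared out between genes and its level is uncertain. Card10, the scaffold of the same family found in epithelial and other non-blood cells, was 1.71-fold higher, at 102 ± 5.84 CPM with luteolin and 59.7 ± 8.64 CPM with vehicle (SD, n = 3 each). Card9, the scaffold used by myeloid cells downstream of fungal lectin receptors, was at 0.193, 0.130 and 0.257 CPM with luteolin, against 1.93, 1.99 and 1.19 CPM with vehicle, 8.50-fold lower (edgeR adjusted p = 0.000707). Mavs, the mitochondrial adaptor of cytosolic RNA sensors, was 1.41-fold higher, and Card6 (0.27) and Card19 (0.12) did not pass.

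Among the 14 genes with too few reads to test were Tlr9, Tlr11, Tlr12, Nlrc4, Nlrp1a, Nlrp2, Nlrp4c, Nlrp4f, Nlrp5, Nlrp6, Nlrp9b, Nlrp10 and Nlrp12. Tlr9, the receptor of unmethylated CpG DNA, had 3 counts over the luteolin group and 38 over the vehicle group, a ratio of vehicle to luteolin of 11.5 with an exact 95% counting interval of 3.66 to 58.4. Nlrp12 had 1 count with luteolin and 23 with vehicle (ratio 20.9, interval 3.40 to 863), and Nlrc4, the partner of the NAIP proteins, 2 and 25 (ratio 11.4, interval 2.84 to 99.2). With no filter on low counts these 3 were lower by edgeR (adjusted p 0.00507 to 0.0246), and the other 10 named here did not pass. Nlrp10 had 42 counts with luteolin and 22 with vehicle, Nlrp6 22 and 34, and Nlrp4f 10 and 2; none of these 3 passed.

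Other genes of the pathways were read from 7 lists of 75 genes, of which 70 were tested: 36 were lower, 12 were higher and 22 did not pass, that is 68.6% called beside 58.9% of all tested genes. The lists of ligands and of target genes were lower nearly throughout. Of 11 ligands and accessory proteins 10 were lower and Cnpy3 (-0.09) did not pass (median log2 fold change -2.85, which is that of Cd14, and S100a8 had no luteolin counts, so that with 3 counts over the group as the limit it was at least 114-fold lower); the matrix proteins Tnc and Vcan, which can act on Toll-like receptors, were 30.6-fold and 14.1-fold lower. Of 8 tested target genes 7 were lower (median -5.03), beside 30.4% of all tested genes, and Tnf (0.64) did not pass. The monocyte chemokine gene Ccl2 was 78.1-fold lower, on 8 counts over the luteolin group, and Ptgs2, the inducible cyclooxygenase, 14.5-fold. The targets Ccl2, Cxcl1, Cxcl2, Cxcl10 and Lcn2 passed the filter on low counts only through their vehicle level. So did the ligands S100a8, S100a9 and Vcan. Such genes could hardly be called higher, so these counts and medians were partly set by the filter.

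Of 17 signal transducers 5 were higher, 3 lower and 9 did not pass (median 0.15): Ikbkg, a subunit of the IκB kinase, was 1.29-fold higher and the ubiquitin ligase Traf6 was higher by 0.27 on the log2 scale (not called with limma-trend, 0.14), and the kinase Ikbke was 1.49-fold lower and Ube2n, a ubiquitin-conjugating enzyme, 1.18-fold lower (a call that ended without luteolin 2), while Nfkb1 (-0.20) and Rela (0.15) did not pass. Of 11 tested negative regulators 2 were higher, Sigirr (0.79) and the deubiquitinase Cyld (0.42), 5 were lower, Il1rl1 (-5.72) and Dok3 (-1.55) with the smallest p, and 4 did not pass. Of 12 inflammasome effectors 7 were lower, led by Il1b, the interleukin-1β gene, at 95.7-fold, and Ninj1, which ruptures the membrane of dying cells, at 1.90-fold. Txnip was higher (0.56), a call that ended without any 1 luteolin library and with library sizes only, upper quartile factors or limma-trend (adjusted p 0.0700 to 0.111), and 4 did not pass, the pore former Gsdmd (-0.26) and Il18 (0.22) among them. The vehicle levels of Il1b were 13.9, 39.2 and 60.4 CPM in vehicle 1, 2 and 3, the same order as those of Nlrp3. Il1b held 18 counts over the luteolin group (log2 fold change -6.58, SE 0.727), and the negative regulator Il1rl1 held 15. Both, and the effector Casp4, passed the filter on low counts only through their vehicle level. Of 6 ubiquitin ligases of the NOD pathway Birc2 (0.44) and Xiap (0.29, not called without luteolin 2, with library sizes only or with limma-trend) were higher, Birc3 (-0.76) was lower and 3 did not pass. In the cytosolic nucleic acid list, the ligase Trim25 (0.70) and the RNA sensor Ddx58 (0.26) were higher, and Zbp1 (-3.65) and Dhx58 (-0.91) were among the 3 lower genes. The call of Ddx58 ended without luteolin 1, luteolin 2, vehicle 1 or vehicle 3, and with library sizes only, upper quartile factors, the replicate block, the gene length correction or limma-trend (adjusted p 0.0535 to 0.197).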

How the data were processed

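Per the labels' protocols, Trizol RNA of frozen whole corneas went into Illumina TruSeq libraries. Samples were grouped by title, 3 luteolin and 3 vehicle. The build mm9 and the tools RSEM 1.2.12 and Bowtie2 2.2.5 stand in the submitters' processing notes; the sources used here do not give their roles, the annotation or the use of strand, so antisense or overlapping genes may share reads. The authors deposited estimated counts (not whole, by more than 0.001, in 10.3% to 10.8% of values), FPKM and TPM (scaled by gene length, per the file headers), and normalized read counts, a signal made by dividing counts by 1 factor per library, which were not tested. The 8 group average columns were not used.

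Rounded counts entered edgeR 4.0.16 (R 4.3.3), where filterByExpr (minimum count 10, minimum total 15) removed 3956 genes and TMM factors scaled the libraries. The quasi-likelihood test gave luteolin over vehicle for every gene left, with Benjamini-Hochberg adjustment over all of them and calls at 0.05. SEs were taken from each log2 fold change and the root of its F statistic. CPM uses the TMM factors. No 2 libraries of a group agreed within sampling noise (chi-square over degrees of freedom 6.30 to 30.3). Replicate numbers did not pair the libraries. In simulated counts for this comparison (13838 genes, 50 changed at each fold), 46% of 1.5-fold, 64% of 2-fold, 92% of 4-fold and 100% of 8-fold changes were recovered. Of the calls 9.58% were false, which is above the threshold of 0.05. Far fewer genes were changed there than the 58.9% called in the data, so these shares may not carry over to the calls made here.

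The members and lists were chosen with earlier results of these data known. The values of 1 gene with too few reads to test and of 1 marker gene are not reported here. Per-library values are given for genes past the threshold with an absolute log2 fold change of at least 1 and for the 2 with the smallest p in each role; pathway genes named are the 2 with the smallest p in each direction. Tlr2, the genes in the 16-panel plot, and pathway and marker genes named otherwise were chosen after their values were seen. Alternatives were other normalization factors, no filter or 1 CPM in 3 libraries, DESeq2 1.42.0, a replicate block, a gene length correction, limma 3.58.1 (limma-trend) on log2(FPKM + 1), and leaving out each library.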

Additional observations from a re-analysis of the deposited data

How the results depend on the processing

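Of the 63 sensors, adaptors and kinases, 31 to 36 were called under the other scalings, filters and tests tried: the lower count ran from 20 (at least 1 CPM in 3 libraries) to 25 (library sizes only, and no filter, which tested all 63), and the higher count from 9 (limma-trend on log2(FPKM + 1)) to 12 (gene length correction). Leaving out 1 library gave 21 to 22 lower and 10 to 13 higher. None of the 32 called genes changed sign under these alternatives. The number of pathway list genes called higher was 7 with library sizes only and 6 with limma-trend, against 12, and the median of all tested genes moved to -0.13 and -0.12 there. Card19, not called in the test as reported, was -0.02 with limma-trend but was called higher with the gene length correction (0.36) and without vehicle 2 (0.21). Other genes near zero changed sign without being called: Map3k7 was -0.04 with upper quartile factors, -0.06 with library sizes only, -0.03 with the gene length correction and -0.08 with limma-trend; Irak4 was -0.08, -0.10 and -0.10 with upper quartile factors, library sizes only and limma-trend and -0.03 to 0.03 with 1 library left out; Tirap was 0 with limma-trend; Nek7 was 0 with DESeq2 and -0.07 to 0.02 with 1 library left out; Unc93b1 was 0 with the replicate block, 0.03 with the gene length correction and -0.17 to 0.19 with 1 library left out. Tbk1 and Myd88 passed with library sizes only (-0.25 and -0.23), Tlr4 with the gene length correction (-0.29), Tab1 passed without luteolin 1 (0.39), Card6 (0.37) and Nlrx1 (-0.25) passed without vehicle 2, and Nod1 did not pass with limma-trend (0.21, adjusted p = 0.0514). The cause of these differences was not tested. A replicate block gave 22 lower and 11 higher among the members (Nlrc3 passed, -0.88) and 7934 calls over all genes; deviations of libraries with the same number correlated at -0.150, 0.0267 and 0.0121, so the numbers do not pair them. Depth limits Tlr6, Tlr8, Nlrp3, Card9, Cd180 and Ticam2, which had 8 to 13 counts over the luteolin group.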
